A study of Homo sapiens with 12 samples.

Results

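The response of BRAF-mutant melanoma cells to 250 nM PLX4032, the lower dose of the RAF inhibitor also known as vemurafenib in this series, was described here across all genes measured. The samples were those labelled DMSO or 250 nM PLX4032 in 5 human melanoma cell lines, paired by cell line, and they made up 10 of the 12 arrays of the series. They were Malme3M and 4 of the SkMel series, SkMel-1, SkMel-5, SkMel-19 and SkMel-28, and the labels give the genotype of each as BRAFV600E mutant. The control group was each line kept for 8 h in 0.1% DMSO, the solvent, and the treated group was the same line kept for 8 h with 250 nM PLX4032 in DMSO. All cultures grew in the same medium with serum and were at 70% confluency when treated. There was 1 array per line and condition, so the 5 lines were the replicates, and the p-values measure how alike the lines responded and not the spread between cultures of 1 line. The other arrays, of cells given 1000 nM, were left out.

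BRAF is a kinase that passes growth signals from RAS through the kinase MEK to ERK, and the V600E form signals without RAS. ERK phosphorylates transcription factors and other kinases, and so sets the level of many transcripts within hours. PLX4032 binds the mutant kinase and blocks the signal to MEK in cells of this genotype. BRAF itself has no probe set that passed the steps used here and was not analysed here.

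Each array measured the RNA of a whole culture, so fewer cells with a transcript and less of it per cell cannot be told apart. The arrays report the brightness of probe sets in arbitrary units, called signal below, and the deposited arrays share a trimmed mean of 500.1, so each change is relative to the bulk of transcripts on the same array. Array medians ranged from 102.5 to 130.4. Fold changes are log2 differences between 250 nM and DMSO, averaged over the 5 lines and computed after adding 12 to each signal, which understates the change of dim genes. Genes were tested when their mean signal reached 85.8, and that level serves below as the mark for a dim array. Of 14 melanocyte markers measured, 14 were bright enough to be tested, with a summed signal of 49210 to 85700 in DMSO and 60990 to 95430 at 250 nM. Of the blood cell markers 0 of 9 reached that level (summed signal 214.4 to 743.4 in DMSO and 210 to 1281 at 250 nM), and of the endothelial markers 0 of 8 (106.1 to 673.8 and 87.2 to 347.2). That level is a mean over 10 arrays, and single arrays of these markers were brighter. The endothelial KDR had a median of 185.9 in DMSO (highest 544) and 28.6 at 250 nM (highest 135.1), and its change was not tested. The blood cell marker CD79A reached 510.5 in DMSO and 1015 at 250 nM. The mean level was reached by 3 of 12 fibroblast and 4 of 10 keratinocyte markers. The summed signal of the fibroblast markers was 806.6 to 1959 in DMSO and 806.2 to 2270 at 250 nM, and that of the keratinocyte markers 3064 to 7291 and 3274 to 7555. Among these, KRT18, a keratin of simple epithelia, fell (-0.77, SE 0.15) and ACTA2, smooth muscle actin, rose (0.52, SE 0.12), and their part in other results was not tested. Of the melanocyte markers 4 rose and 0 fell, with a median of 0.24: GPNMB (0.30), MLANA (0.20), SLC45A2 (0.26) and TRPM1 (1.54). These 4 were 28.6% of the markers, near the 28.3% of all genes tested that changed. SLC45A2 did not pass the threshold given below when SkMel-28, SkMel-19 or Malme3M was left out. S100B stood at -0.30 and did not pass it. The ratio of 3' to 5' signal of the control transcripts, a sign of RNA integrity, differed between the groups by -0.01 for GAPDH and -0.02 for ACTB on the log2 scale (two-sided exact sign-flip p = 0.875 and 0.625, n = 5 lines, smallest possible p 0.062).

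With limma's Benjamini-Hochberg threshold of 0.05, 2030 of the 7178 genes tested changed, which is 28.3% of them. Of these, 1075 were higher at 250 nM (15% of genes tested) and 955 were lower (13.3%). Over all genes tested, the log2 fold change had a median of 0.03. All 5 lines moved the same way for 1849 of the 2030 genes, and for 37.5% of all genes tested. The test ran over these same lines, so agreement among the called genes is partly a condition of the call. With SkMel-19 left out 1289 genes passed, and with Malme3M left out 1340 did. The groups of 5 arrays did not overlap at all for 1.87% of genes. Lines differ widely in their basal levels, so the paired difference within a line, not the group means, carries most of the results below.

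Genes known as outputs of ERK, genes of the cell cycle and genes of ribosome production held 204 of these calls among 490 tested, and they set the largest falls. Of 77 ERK outputs, 51 fell and 6 rose, led by DUSP6, the phosphatase that inactivates ERK (-5.04, SE 0.57), SPRY2, a feedback inhibitor (-3.92, SE 0.32), IER3 (-3.51, SE 0.37) and FOSL1, a subunit of AP-1 (-3.47, SE 0.28). Their membership comes from earlier work on this signal and is not independent evidence of its direction. Of 190 cell cycle genes 36 fell and 24 rose, and of 223 genes of ribosome production 87 fell and 0 rose. CCNG2, an atypical cyclin (1.31, SE 0.13), and FOSL2 (0.98, SE 0.26, a call lost without SkMel-1, SkMel-28 or SkMel-19) were the largest rises among the 3 groups. The remaining 6688 genes held 1826 calls, 1045 higher and 781 lower, of which 47 were higher and 75 lower by at least 2-fold, and they are the subject of what follows.

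The 14 largest rises outside those groups came from genes of varied roles. PNRC1, a nuclear receptor coregulator that also takes part in removing the cap of mRNA, rose 4.17-fold. Its signal in DMSO was 191 in SkMel-1, 269.7 in SkMel-5, 721 in SkMel-28, 254 in SkMel-19 and 284 in Malme3M. At 250 nM its signal was 1456 in SkMel-1, 878 in SkMel-5, 1657 in SkMel-28, 1206 in SkMel-19 and 1549.7 in Malme3M. Every treated array lay above every control array, although SkMel-28 started higher than the other lines and rose least, and the log2 fold change was 2.06 (SE 0.20, n = 5 lines, limma adjusted p = 0.000373).

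PPARGC1A, the coactivator PGC-1alpha that promotes mitochondrial biogenesis, rose 3.62-fold. In DMSO its signal was 378 in SkMel-1, 84.2 in SkMel-5, 104 in SkMel-28, 345 in SkMel-19 and 91.2 in Malme3M. At 250 nM it stood at 1846 in SkMel-1, 186 in SkMel-5, 385 in SkMel-28, 1169 in SkMel-19 and 568 in Malme3M. It rose in every line, but the groups overlapped, because the controls of SkMel-1 and SkMel-19 were brighter than the treated array of SkMel-5 (1.86, SE 0.18, limma adjusted p = 0.000373).

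SEMA3C, a secreted semaphorin, rose by a log2 fold change of 1.94 (SE 0.25), most in SkMel-1 (from 132.5 to 1182) and least in SkMel-5 (from 88.0 to 181.5). ID2, which holds basic helix-loop-helix factors away from DNA, was bright throughout and rose in every line, from 1608 in SkMel-1, 1039 in SkMel-5, 976 in SkMel-28, 335 in SkMel-19 and 1043 in Malme3M in DMSO to 5174 in SkMel-1, 2265 in SkMel-5, 3102 in SkMel-28, 1167 in SkMel-19 and 3590.5 in Malme3M at 250 nM. SkMel-5 rose least and SkMel-19 stayed dimmest, and the groups overlapped (1.60, SE 0.10, limma adjusted p = 9.66e-05). CDC42EP4, an effector of the GTPase CDC42 that acts on septins and the cytoskeleton, rose between 1.16 in SkMel-5 and 1.63 in SkMel-1 (1.39, SE 0.09, limma adjusted p = 9.66e-05). The endocytic adaptor STON1 (1.88, SE 0.24), GALNT3, which starts mucin-type glycans (1.79, SE 0.17), HPGD, which degrades prostaglandins (1.78, SE 0.20), and the cation channel TRPM1 of melanocytes (1.54, SE 0.21) also rose in all 5 lines. So did the ATP-gated channel P2RX7 (1.46, SE 0.18), the Golgi and centrosome anchor PDE4DIP (1.40, SE 0.14), the carboxypeptidase CPM (1.33, SE 0.13) and the chloride channel BEST1 (1.32, SE 0.19). A control array was dimmer than 85.8 for 9 of these 14 genes, so the size of those rises depends on the constant added. When such dim values were set to 85.8, the log2 fold change was 1.23 for HPGD, 1.02 for TRPM1 and 1.26 for STON1.

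The 14 largest falls were as varied. KCNN4, a potassium channel opened by calcium, fell 6.38-fold. Its signal in DMSO was 1153 in SkMel-1, 338 in SkMel-5, 467 in SkMel-28, 264 in SkMel-19 and 1776 in Malme3M. After 8 h with PLX4032 it was 148 in SkMel-1, 80.7 in SkMel-5, 90.7 in SkMel-28, 16.4 in SkMel-19 and 198 in Malme3M. Every treated array lay below every control, and that of SkMel-19, at 16.4, was the dimmest (-2.67, SE 0.19, limma adjusted p = 0.000147, and -2.30 with dim signals raised to 85.8).

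GJB1, which encodes the gap junction protein connexin 32, fell 3.77-fold from a level that differed less between lines than that of KCNN4. In DMSO its signal was 1972 in SkMel-1, 2044 in SkMel-5, 1525 in SkMel-28, 1857 in SkMel-19 and 1421 in Malme3M. With 250 nM PLX4032 it was 395 in SkMel-1, 713 in SkMel-5, 482 in SkMel-28, 511 in SkMel-19 and 278 in Malme3M. The groups did not overlap, SkMel-5 kept the highest treated signal and Malme3M the lowest (-1.91, SE 0.13, limma adjusted p = 0.00011).

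RND3, whose product opposes contraction of the actin cytoskeleton, fell in every line but from very different levels. Its DMSO signal was 828 in SkMel-1, 345 in SkMel-5, 2593 in SkMel-28, 472 in SkMel-19 and 1594 in Malme3M. The treated signal was 55.4 in SkMel-1, 65.5 in SkMel-5, 942 in SkMel-28, 72.9 in SkMel-19 and 139.5 in Malme3M. The treated array of SkMel-28 was brighter than 3 of the controls, so the groups overlapped (-2.64, SE 0.28, limma adjusted p = 0.000414, and -2.43 with dim signals raised). The melanocortin receptor MC1R (-2.10, SE 0.23) fell least in SkMel-5 (from 304.5 to 146.5) and most in Malme3M (from 2076 to 257.9). The phosphate importer SLC20A1 (-1.85, SE 0.22), the bicarbonate transporter SLC4A7 (-1.71, SE 0.20), the glucose transporter SLC2A3 (-2.13, SE 0.37) and the inositol phosphatase INPP5F (-1.83, SE 0.19) fell with no overlap between the groups. MANSC1 (-2.22, SE 0.37), the transcript named SLC67A1-AS (-1.83, SE 0.28), the carboxypeptidase CPN1 (-1.78, SE 0.14), the lipid phosphatase PLPP3 (-1.73, SE 0.21) and HEY1, a transcriptional repressor of the Notch pathway (-1.70, SE 0.30), fell in all 5 lines with overlapping groups. In all, 7 of the 28 genes had groups that did not overlap, and a treated array was dimmer than 85.8 for 8 of the 14 falls.

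**Figure D1:**
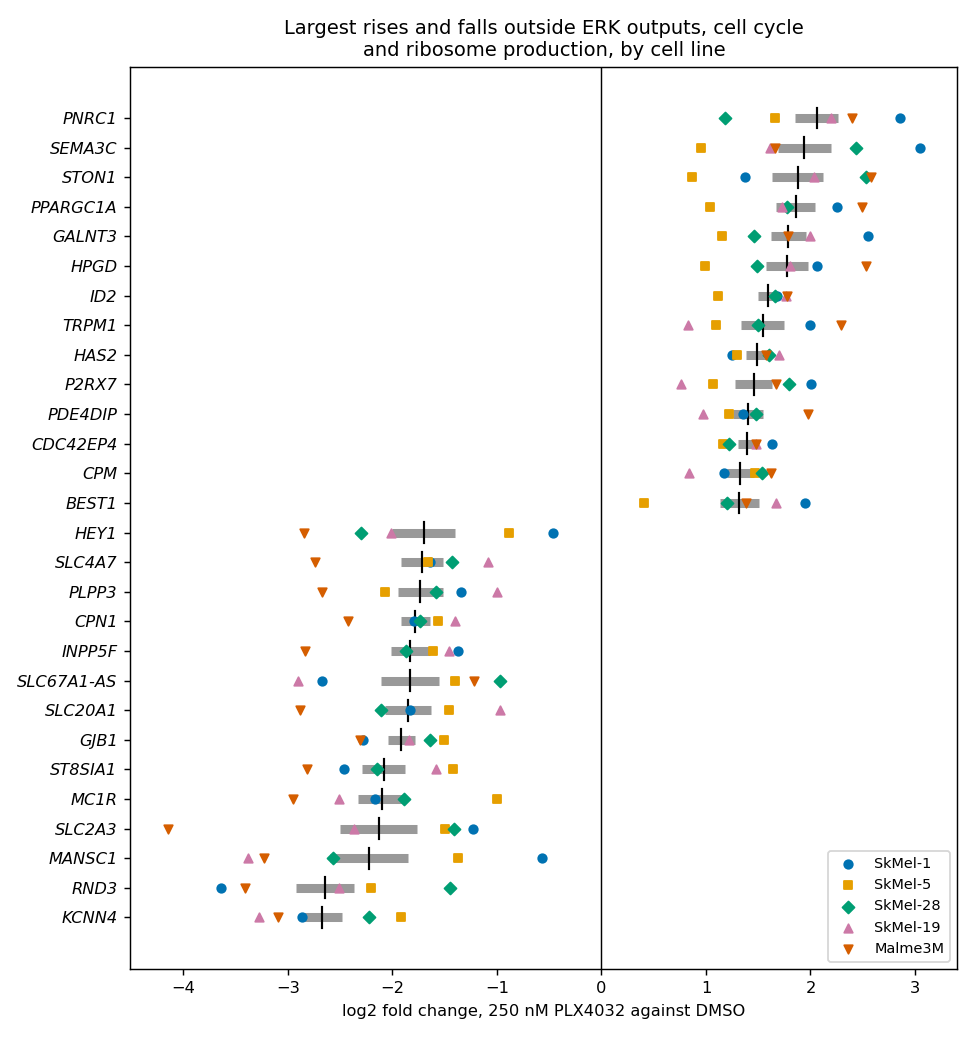
The log2 fold change at 250 nM PLX4032 against DMSO (x axis) of the 14 largest rises and 14 largest falls outside ERK outputs, cell cycle and ribosome production (y axis), with 1 point per cell line, a black tick for the mean of 5 lines and a grey bar for the mean plus or minus 1 SE. All points of a gene lie on 1 side of 0, as the choice of genes required, and Malme3M had the largest change for 17 of the 28 genes while SkMel-5 had the smallest for 12.

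The start regions of 22 of the 28 genes were read from RefSeq (assembly GRCh38.p14) as windows of 300 bases, 250 before the annotated start and 50 after it, and searched on both strands for the E-box CACGTG, the sequence bound by MYC and by MITF and its relatives. They are shown because the same letters occur at genes that rose and at genes that fell. The 4 windows with a match were those of PPARGC1A (chr4:24472856-24473155, minus strand), HPGD (chr4:174522439-174522738, minus strand), KCNN4 (chr19:43780924-43781223, minus strand) and SLC20A1 (chr2:112645689-112645988, plus strand). They are printed 5′ to 3′ along the gene, with the E-box, and in HPGD also the ETS motif CCGGAAG, in capitals.
PPARGC1A: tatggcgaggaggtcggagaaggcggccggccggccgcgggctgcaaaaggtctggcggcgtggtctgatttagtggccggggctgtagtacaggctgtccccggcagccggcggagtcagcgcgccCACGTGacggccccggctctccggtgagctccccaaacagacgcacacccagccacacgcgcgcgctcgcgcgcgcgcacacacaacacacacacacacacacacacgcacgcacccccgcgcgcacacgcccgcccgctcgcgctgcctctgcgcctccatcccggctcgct
HPGD: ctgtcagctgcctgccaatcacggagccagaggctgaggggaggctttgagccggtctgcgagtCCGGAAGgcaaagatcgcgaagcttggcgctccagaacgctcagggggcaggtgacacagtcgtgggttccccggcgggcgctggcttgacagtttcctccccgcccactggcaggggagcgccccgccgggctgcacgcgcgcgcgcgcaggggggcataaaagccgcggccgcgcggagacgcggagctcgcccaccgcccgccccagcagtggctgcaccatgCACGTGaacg
KCNN4: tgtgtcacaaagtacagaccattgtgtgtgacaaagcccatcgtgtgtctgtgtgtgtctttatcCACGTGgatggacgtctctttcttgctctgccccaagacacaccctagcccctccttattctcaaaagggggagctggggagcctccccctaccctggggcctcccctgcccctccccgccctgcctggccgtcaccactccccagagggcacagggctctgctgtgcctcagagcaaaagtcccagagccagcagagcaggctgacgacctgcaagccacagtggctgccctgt
SLC20A1: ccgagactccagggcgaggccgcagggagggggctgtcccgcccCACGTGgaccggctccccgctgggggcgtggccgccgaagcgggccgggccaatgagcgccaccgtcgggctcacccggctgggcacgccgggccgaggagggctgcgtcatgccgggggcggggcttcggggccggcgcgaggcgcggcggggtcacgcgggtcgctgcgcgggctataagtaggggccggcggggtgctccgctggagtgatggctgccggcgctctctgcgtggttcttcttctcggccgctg
PPARGC1A and HPGD rose and KCNN4 and SLC20A1 fell. The match starts 123 bases before the start site in PPARGC1A, 185 before it in KCNN4 and 206 before it in SLC20A1, and 40 bases after it in HPGD. Each window belongs to the 1 start that the table gives for the gene, other starts were not used, and a match is a description of letters and not of binding. Over all genes, the E-box was found in 10.9% of the 6057 windows of tested genes and in 7.43% of all windows in the table. It was in 13.3% of the windows of genes that rose and 13% of those of genes that fell, and in 9.94% of the falls outside ERK outputs, cell cycle and ribosome production. Among the 73 falling genes of ribosome production with a window, the E-box was in 39.7% and the ETS motif in 43.8%. Windows of ribosome production genes that did not fall were not counted apart. The ETS motif CCGGAAG was in 20.6% of tested windows, in 16.2% for rises and in 22.8% for falls. The nuclear receptor motif AAGGTCA was in 2.18% of tested windows, in 3.03% for rises and in 1.15% for falls. The median GC content was 65.7% for all tested windows, 64.7% for rises and 67% for falls, and these differences were not tested.

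Several genes that build the carbohydrate coat of the cell surface fell. Gangliosides are sialic acid-bearing glycolipids, and GD3 is the main one of melanoma cells. It is made from ceramide by adding glucose, galactose and then sialic acid residues in turn. B4GALT6, which adds the galactose, ST3GAL5, which adds the first sialic acid to give GM3, and ST8SIA1, which adds the next to give GD3, all fell. Of 25 sphingolipid and ganglioside genes tested, 7 fell and 4 rose, with a median log2 fold change of 0.03. The lists were described by such counts, and of their 538 called members 280 passed in every fit with 1 line left out. The shares over all genes tested, 15% higher and 13.3% lower, are the measure for each count from the fit of all 5 lines. The lists were chosen with earlier results of these data known. A count above those shares is therefore a description and not independent evidence about a list. With 1 line left out fewer genes passed over all genes too, so the measure for such counts is lower. Without SkMel-19, 629 of the 7178 genes were higher and 660 lower, without Malme3M 646 and 694, and without SkMel-28 707 and 715. The numbers were 740 and 702 without SkMel-1, and 972 and 860 without SkMel-5.

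The signal of ST8SIA1 in DMSO was 545 in SkMel-1, 57.4 in SkMel-5, 568 in SkMel-28, 123 in SkMel-19 and 504 in Malme3M. At 250 nM it was 89.3 in SkMel-1, 14 in SkMel-5, 119 in SkMel-28, 33 in SkMel-19 and 61.5 in Malme3M. It fell in every line (-2.08, SE 0.20, limma adjusted p = 0.000368), but SkMel-5 was dim before treatment, the groups overlapped, and with dim signals raised the value was -1.49.

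B4GALT6 lay in DMSO at 590.3 in SkMel-1, 408 in SkMel-5, 388 in SkMel-28, 415 in SkMel-19 and 478 in Malme3M. After treatment it lay at 244 in SkMel-1, 67 in SkMel-5, 107 in SkMel-28, 204 in SkMel-19 and 131 in Malme3M. The groups did not overlap, and SkMel-5 fell most (-1.63, SE 0.19, limma adjusted p = 0.000637). ST3GAL5 remained bright, at 1465 to 2564 in DMSO and 481.6 to 1718 at 250 nM, with overlapping groups (-1.06, SE 0.16, limma adjusted p = 0.00197). The ceramide synthases CERS2 (-0.31) and CERS6 (-0.24), the desaturase DEGS1 (-0.31) and the sphingosine kinase SPHK1 (-0.57) fell less, with the call of CERS6 lost without any 1 of the 5 lines and that of SPHK1 with cell line as a random block. The rises were lysosomal enzymes that break these lipids down, SMPD1 (0.70, SE 0.09), HEXA (0.37) and ASAH1 (0.28), and the ceramide kinase CERK (0.28, a call lost without SkMel-1, SkMel-5 or Malme3M).

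Several chondroitin sulphate genes fell as well. Of 44 glycosaminoglycan and proteoglycan genes tested, 13 fell and 4 rose, with a median of -0.06. That list also covers heparan sulphate and hyaluronan, with EXTL1, GLCE and HYAL2 among its called members. Its counts are therefore not those of chondroitin sulphate alone. With any 1 line left out 10 or 11 fell, and without SkMel-19 or Malme3M 2 rose. CSPG4, the melanoma chondroitin sulphate proteoglycan also known as NG2, had a DMSO signal of 356 in SkMel-1, 1092 in SkMel-5, 1302 in SkMel-28, 64.8 in SkMel-19 and 2481 in Malme3M. At 250 nM its signal was 136 in SkMel-1, 273 in SkMel-5, 729 in SkMel-28, 26.4 in SkMel-19 and 344 in Malme3M. It fell in every line, most in Malme3M, while SkMel-19 was dim in both conditions (-1.58, SE 0.25, limma adjusted p = 0.00273, and -1.38 with dim signals raised).

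CHSY1, which extends the chondroitin chain, fell by 1.15 to 1.82 in the 5 lines (-1.47, SE 0.11, limma adjusted p = 0.000147). The chain-starting enzymes CSGALNACT1 (-0.66, SE 0.13) and CSGALNACT2 (-0.68, SE 0.12) and the linker enzyme B3GAT3 (-0.38, a call lost without any line but SkMel-28) were lower too. So was the chondroitin sulphotransferase CHST11 (-0.87, a call lost without SkMel-1, SkMel-28 or SkMel-19). B3GAT1, a glucuronyltransferase of other glycans, was also lower (-0.82, a call lost with dim signals raised). CHST2, a sulphotransferase of other glycans, fell most in Malme3M (-1.33, SE 0.34, a call lost without SkMel-28). The call of CSGALNACT1 is lost when cell line is a random block.

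HAS2, which makes hyaluronan, the glycosaminoglycan that carries no sulphate, went the other way. Its signal in DMSO was 90.3 in SkMel-1, 466 in SkMel-5, 737 in SkMel-28, 61.2 in SkMel-19 and 135 in Malme3M. At 250 nM it was 231 in SkMel-1, 1162 in SkMel-5, 2270.3 in SkMel-28, 225 in SkMel-19 and 425 in Malme3M. The rise was between 1.25 and 1.70 in every line although the starting levels differed widely, and the groups overlapped (1.48, SE 0.10, limma adjusted p = 0.00011). The hyaluronidase HYAL2 (-0.48) and CEMIP2 (-1.06, SE 0.23) fell, and the proteoglycans SDC4 (0.50) and BCAN (0.42) and the xylosyltransferase XYLT1 (0.57) rose. The call of BCAN was lost without any line but SkMel-1, and that of XYLT1 without any line but SkMel-28, with dim signals raised and under both other scalings of the arrays. Among 44 genes of mucin-type, N-linked and sialic acid glycans, 8 fell and 5 rose, near the shares over all genes. Beside GALNT3, the rises included ST6GALNAC2, which caps mucin-type glycans (1.00, SE 0.09), while ST3GAL1, which caps the same core with sialic acid at another position, fell with no overlap between the groups (-1.40, SE 0.27).

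**Figure D2:**
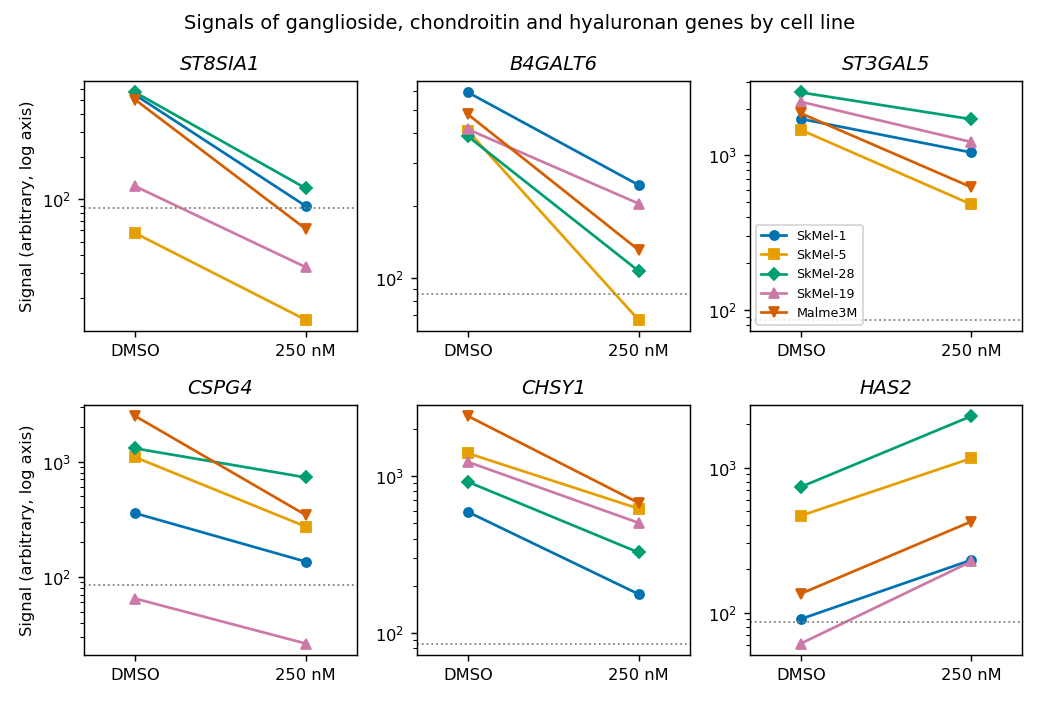
Signal in arbitrary units on a log axis (each panel has its own range) in DMSO and at 250 nM PLX4032, with 1 line per cell line, for 3 ganglioside genes (ST8SIA1, B4GALT6, ST3GAL5), 2 chondroitin sulphate genes (CSPG4, CHSY1) and the hyaluronan synthase HAS2; the dotted line marks a signal of 85.8. HAS2 rose in all 5 lines and the other genes fell in all 5, while the lines kept widely different levels; SkMel-19 has no CSPG4 array above the dotted line.

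In the lists for the citrate cycle with pyruvate entry and for fatty acid oxidation with peroxisomes, nearly all called genes rose, by small amounts. Of 36 genes of the citrate cycle and pyruvate entry, 12 rose and 0 fell, and the median was 0.185, against 0.03 over all genes tested. In each of the 5 lines the median of these genes was above 0, between 0.11 in SkMel-19 and 0.24 in SkMel-1. GOT1, the cytosolic aspartate aminotransferase (0.69, SE 0.19), PCK2, which makes phosphoenolpyruvate in mitochondria (0.66, SE 0.17), PDK2, a kinase that restrains pyruvate dehydrogenase (0.62, SE 0.11), and DLD, a subunit shared by several dehydrogenases (0.38, SE 0.06), rose most. The enzymes of the cycle itself changed less, among them SDHA (0.33, SE 0.07), SUCLG1 (0.34) and CS (0.21, SE 0.07, a call lost without SkMel-1, SkMel-5, SkMel-28 or SkMel-19). Without SkMel-19, 7 of the 36 rose, and the calls of GOT1 and PCK2 were lost.

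Of 42 genes of fatty acid oxidation and peroxisomes, 14 rose and 1 fell, with a median of 0.13. The peroxisome division gene PEX11A (0.47, SE 0.12), ETFDH, which hands electrons from fatty acid oxidation to the respiratory chain (0.43, SE 0.10), and the carnitine transferase CROT (0.43, SE 0.11) rose most. HADHA (0.29) and HADHB (0.30), the subunits of the mitochondrial trifunctional enzyme, were among the rises. ACSL4, which activates long polyunsaturated fatty acids, fell (-0.54, SE 0.14). The count of rises was 6 without SkMel-28, 6 without SkMel-19, 7 without SkMel-1 and 9 without Malme3M. PEX11A lost its call without SkMel-1 or SkMel-28, CROT without SkMel-1 or SkMel-19, ETFDH without SkMel-19, HADHA without SkMel-28, HADHB without SkMel-1, SkMel-28 or SkMel-19, and ACSL4 without SkMel-28 or Malme3M.

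Genes of mitochondrial protein import fell more often than they rose. Of 37 tested 8 fell and 1 rose, with a median of -0.05: the outer membrane pore TOMM40 (-0.64, SE 0.10) and the import motor cofactors GRPEL1 (-0.56, SE 0.09) and PAM16 (-0.49, SE 0.12, a call lost without SkMel-1, SkMel-19 or Malme3M) fell most. The count of falls was 3 without SkMel-28 or SkMel-19, 4 without SkMel-1, and 5 without SkMel-5 or Malme3M, and the rise was lost without any line but SkMel-5.

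Autophagy genes, which digest cell contents in the lysosome, rose in 12 of 42 cases and fell in 1, with a median of 0.17, and between 11 and 13 rose with any 1 line left out. TFEB, a transcription factor for lysosome and autophagy genes, had a DMSO signal of 52.2 in SkMel-1, 86.1 in SkMel-5, 19.7 in SkMel-28, 93.7 in SkMel-19 and 135 in Malme3M. With PLX4032 it was 75.9 in SkMel-1, 166 in SkMel-5, 77 in SkMel-28, 287 in SkMel-19 and 574 in Malme3M. It rose in every line, least in SkMel-1, but 2 control and 2 treated arrays were dimmer than 85.8, so the size depends on dim signals (1.26, SE 0.21, limma adjusted p = 0.00336, and 0.87 with them raised). The lipid transfer gene ATG2A (0.92, SE 0.16), ATG14, which directs the lipid kinase VPS34 to autophagy (0.62, SE 0.09), the protease ATG4A (0.59), the mitophagy receptor BNIP3L (0.51), RB1CC1 of the initiating kinase complex (0.47) and GABARAPL1, a membrane tag (0.45), rose. ATG101, another subunit of the initiating complex, fell with no overlap between the groups (-0.97, SE 0.13).

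Of 38 genes of the primary cilium, 10 rose and 1 fell, with a median of 0.18. The transport gene IFT81 rose by 0.61 to 1.14 in the 5 lines (0.90, SE 0.09), and BBS9 (0.68, SE 0.14), MKS1 (0.60, SE 0.11) and BBS1 (0.58), which sort cargo or guard the ciliary base, rose as well. PTCH1, the Hedgehog receptor, which is also a target of that pathway, fell (-1.24, SE 0.23). The count of rises was 6 without SkMel-5, SkMel-28, SkMel-19 or Malme3M, and 2 fell without SkMel-5.

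Genes that process and modify transfer RNA fell in 13 of 47 cases and rose in 2, with a median of -0.08. They included METTL1 (-0.78, SE 0.20, a call lost without SkMel-19) and its partner WDR4 (-0.65, SE 0.14), which methylate guanosine, the pseudouridine synthases PUS7 (-0.78, SE 0.11) and PUS1 (-0.76, SE 0.10), and POP7 of RNase P (-0.77, SE 0.07). The count of falls was 7 without SkMel-19 and 8 without SkMel-1, and that of rises 0 without any line but SkMel-28.

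**Figure D3:**
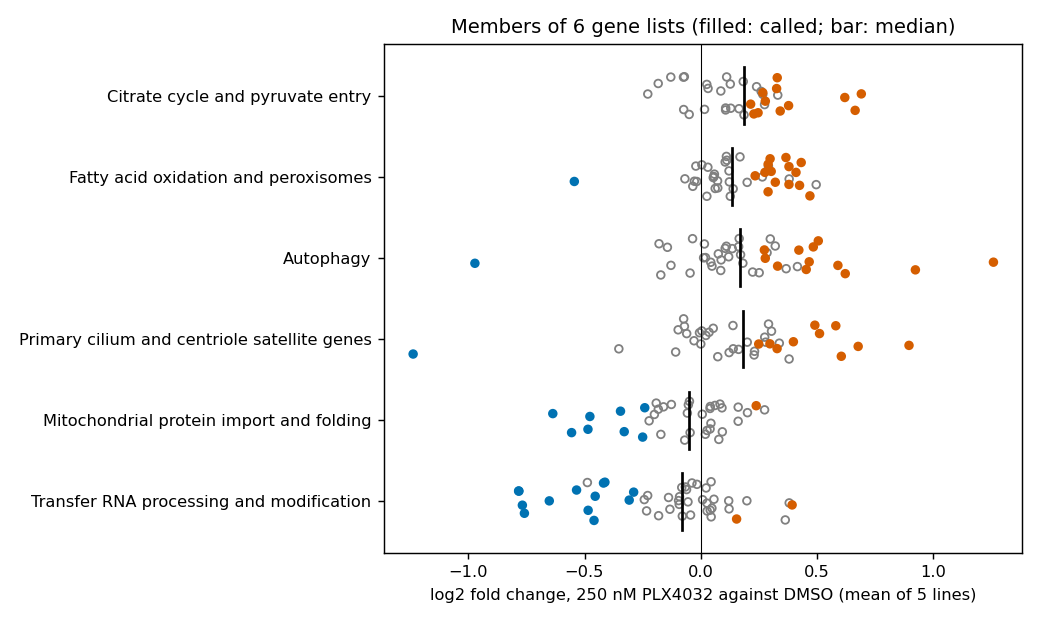
Log2 fold change at 250 nM PLX4032 against DMSO, mean of 5 lines (x axis), of every tested member of 6 gene lists (rows; points are spread vertically only for legibility). Orange points rose and blue points fell at a limma adjusted p under 0.05, open grey points did not pass, and the black bars are the medians, from 0.185 for the citrate cycle to -0.08 for transfer RNA processing.

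Transporters of nutrients and ions changed in both directions. Of 122 solute carriers tested 21 fell and 20 rose, near the shares over all genes tested (13.3% lower and 15% higher). Besides SLC2A3, SLC20A1 and SLC4A7 the falls held SLC43A3, a transporter of purine bases (-1.68, SE 0.15), the zinc exporter SLC30A1 (-1.67, SE 0.28), the sulphate transporter SLC26A2 (-1.11, SE 0.24) and the glutamine transporter SLC1A5 (-0.80, SE 0.13). Among the rises were the amino acid transporters SLC6A15 (1.16, SE 0.14) and SLC7A5 (0.67, SE 0.09) with its partner SLC3A2 (0.65, SE 0.11), the anion exchanger SLC26A4 (0.93, SE 0.17) and the iron transporter SLC11A2 (0.77, SE 0.16). The count of rises was 12 without SkMel-19. Of 14 potassium and chloride channel genes, 5 rose and 3 fell, with the same counts when any 1 line was left out. The potassium channel subunit KCNAB1 (0.95, SE 0.12) and CLIC4 (0.71, SE 0.10) rose beside BEST1, and CLIC1 (-0.64) fell beside KCNN4. Of 46 calcium genes 7 rose and 7 fell, again near those shares, and the falls numbered 3 without SkMel-1 or Malme3M, and 4 without SkMel-28 or SkMel-19. The store-operated channel subunit ORAI3 rose (0.73, SE 0.14) and its relative ORAI2 fell (-0.35, SE 0.11, a call lost without any 1 of the 5 lines), and RCAN1, an inhibitor of the phosphatase calcineurin, fell (-0.81, SE 0.21, a call lost without SkMel-28, SkMel-19 or Malme3M).

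Of 26 axon guidance genes 6 rose and 1 fell (2 without SkMel-19): SEMA6A (1.25, SE 0.12) and the receptor PLXNC1 (0.48, SE 0.09) rose with SEMA3C, and the membrane semaphorin SEMA4C fell with no overlap between the groups (-1.52, SE 0.24). Of 35 junction genes 5 fell and 2 rose, and the placental cadherin CDH3 rose (1.05, SE 0.21, a call lost with cell line as a random block). The 5 falls were near the share over all genes. They numbered 3 without SkMel-5, SkMel-28 or Malme3M, and the rises 1 without SkMel-1. Of 49 genes of vesicle fusion 10 rose and 1 fell, the rises led by the endosomal syntaxin STX7 (0.62, SE 0.07), and they numbered 6 without SkMel-28 or SkMel-19 and 5 without Malme3M. The single fall was lost without SkMel-5, SkMel-28 or SkMel-19.

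**Figure D4:**
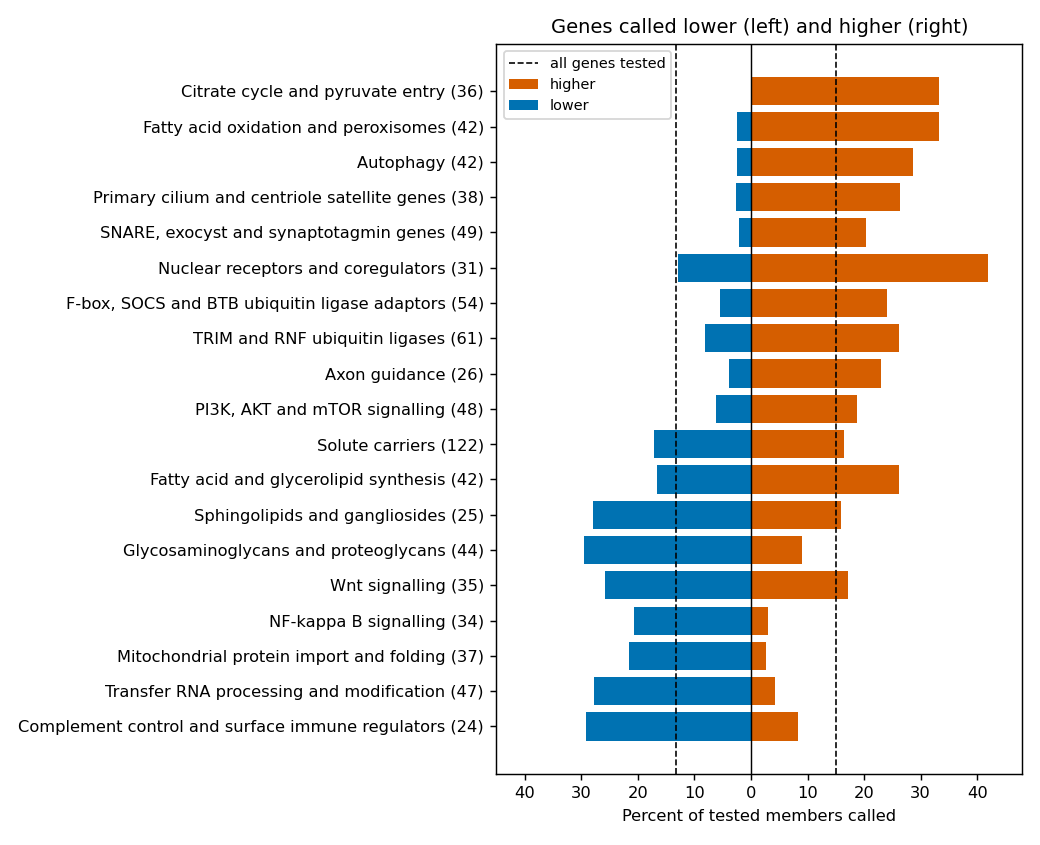
Percent of tested members called higher (orange, to the right) and lower (blue, to the left) at 250 nM PLX4032 against DMSO for 19 gene lists, with the number of members tested in parentheses. The dashed lines mark the shares over all 7178 genes tested, 15% higher and 13.3% lower; 12 of 36 citrate cycle genes were higher and 0 lower, and 13 of 44 glycosaminoglycan genes were lower and 4 higher.

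Nuclear receptors and their coregulators had 13 rises and 4 falls among 31 genes tested, with a median of 0.105. Beside PNRC1 and PPARGC1A, CITED2 (1.13, SE 0.17) and CITED1 (1.08, SE 0.16), coregulators that bind CBP and p300, RXRB, a common partner of other receptors (0.88, SE 0.12), and the glucocorticoid receptor NR3C1 (0.65, SE 0.10) rose. The falls were NR4A3 (-1.89, SE 0.15) and NR4A1 (-1.23, SE 0.22), immediate early receptors without a known ligand, the vitamin D receptor VDR (-1.61, SE 0.17) and PPRC1, a relative of PPARGC1A (-0.77, SE 0.16). NR4A genes are also known ERK outputs. Circadian clock genes rose in 4 of 13 cases and fell in 2, with BHLHE41 (1.05, SE 0.09), PER3 (0.93, SE 0.12) and DBP (0.70, SE 0.15) higher, and 0 fell without SkMel-1 or Malme3M and 1 without any other line. In the PI3K, AKT and mTOR pathway 9 of 48 genes rose and 3 fell, so that the list had a smaller share called than the 28.3% over all genes. The regulatory subunit PIK3R3 (1.10, SE 0.15), the transcription factor FOXO3 (0.74, SE 0.13), the stress-induced SESN1, which restrains mTOR (0.72, SE 0.11), and the phosphatase PHLPP1, which removes phosphate from AKT (0.68, SE 0.08), rose, and AKT1 (-0.26, a call lost without any line but SkMel-19 and with cell line as a random block) fell. The count of falls was 1 without Malme3M.

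Ubiquitin ligases rose more often than they fell. Of 54 adaptors of the F-box, SOCS and BTB types 13 rose and 3 fell, and of 61 TRIM and RNF ligases 16 rose and 5 fell, with medians of 0.05 and 0.11. KLHL24, which targets intermediate filaments, rose with no overlap between the groups (1.21, SE 0.14), as did SOCS6 with overlap (1.08, SE 0.15). TRIM45 (0.72, SE 0.11) and TRIM2 (0.68, SE 0.12) rose, and RNF138 (-1.01, SE 0.11) and RNF126 (-0.94, SE 0.10) fell without overlap. The rises among adaptors numbered 7 without SkMel-28 or SkMel-19 and 8 without Malme3M, and those among TRIM and RNF ligases 7 without SkMel-28, 9 without SkMel-1 or SkMel-19 and 10 without Malme3M. The falls among TRIM and RNF ligases numbered 2 without Malme3M.

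Of 34 genes of NF-kappa B signalling 7 fell and 1 rose, with a median of -0.09, and the single rise was lost without any line but SkMel-1, where 2 rose. TNFAIP3, a feedback inhibitor of that pathway, fell (-1.56, SE 0.20), at -0.77 in SkMel-5 and -2.35 in SkMel-28, with ICAM1, an adhesion molecule and target (-1.08, SE 0.17), and the adaptors TRAF4 (-0.90, SE 0.11) and MALT1 (-0.87, SE 0.16). Of 24 surface immune regulators 7 fell and 2 rose, and the falls numbered 4 without SkMel-1 or SkMel-19: the interferon gamma receptor chain IFNGR2 (-0.97, SE 0.15), the interleukin 1 coreceptor IL1RAP (-0.87, SE 0.15) and PVR, a ligand of receptors on natural killer and T cells (-0.60, SE 0.12), fell. The interferon alpha receptor IFNAR1 was higher (0.43, SE 0.13, a call lost without any line but SkMel-5), and the rises numbered 0 without SkMel-1, SkMel-19 or Malme3M and 1 without SkMel-28.

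In Wnt signalling 9 of 35 genes fell and 6 rose. The transcription factor LEF1 fell (-1.48, SE 0.32), at -0.25 in SkMel-1 and -3.15 in Malme3M, and the Wnt antagonist DKK1 fell (-1.19, SE 0.31, a call lost without SkMel-5, SkMel-28 or SkMel-19). APC, which promotes the breakdown of beta-catenin (0.73, SE 0.13, a call lost with cell line as a random block), and the receptor FZD2 (0.76, SE 0.17) rose. The count of falls was 4 without SkMel-28, and it was 6 without SkMel-5. Of 17 Hippo genes 5 fell and 1 rose: WWTR1, the coactivator TAZ, fell with no overlap between the groups (-0.95, SE 0.13), and its DNA-binding partner TEAD4 was lower (-0.61, SE 0.16, a call lost without SkMel-1, SkMel-28 or SkMel-19). The falls numbered 2 without SkMel-1 or SkMel-28 and 3 without SkMel-19 or Malme3M, and the rise was lost without SkMel-1, SkMel-19 or Malme3M. In the TGF-beta and BMP list 6 of 35 genes fell and 4 rose, near the shares over all genes, the falls 3 without SkMel-28, and the repressor TGIF1 (-1.06, SE 0.12) fell while SNAI2 rose (0.77, SE 0.21, a call lost without SkMel-1 or Malme3M). Of 44 cAMP genes 11 rose and 5 fell, and the rises numbered 6 without SkMel-1 or SkMel-28. Of 27 genes of the other MAP kinase pathways 5 rose and 2 fell, and 3 rose without SkMel-28 or SkMel-19 and 1 fell without any line but SkMel-19. MAP2K6, which activates p38, rose (0.89, SE 0.17) and MAP3K1, upstream of JNK, fell (-1.16, SE 0.25).

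Of 42 genes of fatty acid and glycerolipid synthesis 11 rose and 7 fell. The fatty acid synthase FASN (-0.75, SE 0.13) and the elongase ELOVL6 (-1.07, SE 0.11) fell, while ACACB, the carboxylase whose product restrains mitochondrial fatty acid uptake (0.89, SE 0.11), and LPIN1, a phosphatase of glycerolipid synthesis that also acts as a coactivator (0.88, SE 0.12), rose. The rises numbered 4 without SkMel-28, 5 without SkMel-19 or Malme3M, and 6 without SkMel-1. Of 45 genes of oxidative stress 10 rose and 4 fell, led by TXNIP, which binds thioredoxin (0.99, SE 0.20), and the rises numbered 6 without SkMel-1 or Malme3M and the falls 0 without SkMel-19, 1 without Malme3M and 2 without SkMel-28. In the iron and metallothionein list 9 of 35 genes rose and 6 fell. The metallothioneins MT1H (-0.90, SE 0.24, a call lost without SkMel-19), MT1X (-0.71, SE 0.15) and MT2A (-0.55, SE 0.12) fell, but their sequences are near-identical and their probe sets may share signal. The rises in that list numbered 4 without Malme3M and 5 without SkMel-28, and the falls 2 without SkMel-19. Of 30 hypoxia genes 5 rose and 3 fell, near the shares over all genes, and EPAS1 rose (0.85, SE 0.18) while HIF1A, its relative, fell (-0.44, SE 0.09).

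The fold changes of the lines were correlated and differed in size. Over the genes tested, the fold changes of each line correlated with the mean of the others at r = 0.68 in SkMel-5, 0.72 in SkMel-1, 0.73 in SkMel-28, 0.76 in SkMel-19 and 0.79 in Malme3M, and pairs of lines at 0.52 to 0.68. These correlations run across genes, which are not independent replicates, and each rests on 1 control array per line. Malme3M had 455 genes changed by at least 2-fold (6.34% of those tested), SkMel-1 had 358 (4.99%), SkMel-19 had 273 (3.8%), SkMel-28 had 261 (3.64%) and SkMel-5 had 160 (2.23%), with no test within a line. Over the 2030 genes called, the median size of the log2 fold change was 0.54 in Malme3M, 0.50 in SkMel-1, 0.46 in SkMel-19, 0.43 in SkMel-28 and 0.34 in SkMel-5. SkMel-5 had the smallest change for 751 of these genes and Malme3M for 208. In each of the 5 lines, the same 8 genes rose and the same 38 fell by at least 2-fold.

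**Figure D5:**
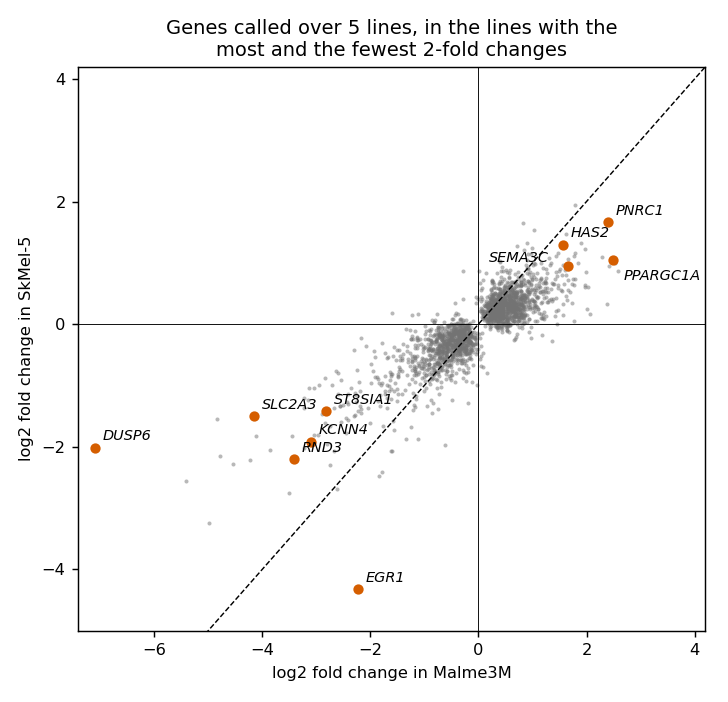
Log2 fold change in Malme3M (x axis) against that in SkMel-5 (y axis) for the 2030 genes called over 5 lines, 1 grey point per gene, with 10 named genes in orange and the line of equal change dashed. The changes are smaller along the y axis than along the x axis, with median sizes of 0.34 and 0.54. EGR1 lies at -4.32 in SkMel-5 and -2.23 in Malme3M, where its signal in DMSO was 93.4.

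Some genes varied far more between lines than others. GDF15, a stress-induced cytokine, was among the brightest genes, and its log2 fold change was -0.50 in SkMel-1, -2.06 in SkMel-5, -3.56 in SkMel-28, -1.62 in SkMel-19 and -3.85 in Malme3M. It fell in every line, most in Malme3M and SkMel-28 and least in SkMel-1. The early response gene EGR1 stood at -0.91 in SkMel-19 and -4.32 in SkMel-5, and SkMel-19 was already at a signal of 73.2 in DMSO. All 5 treated EGR1 arrays were dimmer than 85.8, and its mean of -2.58 became -1.36 with dim signals raised, so its order between lines is not firm. DUSP6, MAFF and EGR3 were the other passed genes with the widest ranges. Among genes that did not pass, 13 were at least 2-fold higher in 1 line and at least 2-fold lower in another. DDIT4, a stress-induced inhibitor of mTOR, had signals in DMSO of 1109 in SkMel-1, 1003 in SkMel-5, 3387 in SkMel-28, 2055 in SkMel-19 and 2689 in Malme3M. At 250 nM its signals were 3082 in SkMel-1, 419 in SkMel-5, 1425 in SkMel-28, 1647 in SkMel-19 and 918 in Malme3M. It was higher in SkMel-1 and lower in the other lines, with a mean of -0.57 (SE 0.37, limma adjusted p = 0.269). PPP3R1, the regulatory subunit of calcineurin, was also higher in SkMel-1, by 1.19, and lower in SkMel-19, by 1.53 (-0.23, SE 0.30, limma adjusted p = 0.593). GNL3L had the same pattern, 1.34 in SkMel-1 and -1.40 in SkMel-19, and MCF2L was at 1.61 in Malme3M and -1.39 in SkMel-28. IL1RAPL1 was at 1.43 in SkMel-5 and -1.36 in SkMel-1, but the SkMel-5 arrays were both dim. With 1 array per line and condition, these single values have no replicate check.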

How the data were processed

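Affymetrix arrays measured total RNA of the cell lines, and the deposited intensity values were made by the authors with GCOS, per the submitters' processing notes. The version, the summarisation of probes and the treatment of background are not given in the sources used here. Values were taken as deposited. Leaving out 62 controls, 22215 probe sets remained: 19064 had a single gene symbol, 1043 had several and 2108 had none. For each of 11963 genes the brightest probe set over the 10 arrays was kept. Tests covered the 7178 genes with a mean log2(value + 12) at or above the 40th percentile, 6.61, where 12 is the 20th percentile across those arrays. The test was limma's (version 3.58.1, R 4.3.3), with cell line as a block, a trend in the prior variance, Benjamini-Hochberg adjustment at 0.05 and 4 residual degrees of freedom. The pairing comes from the cell line in the labels: after subtraction of group means, r was 0.897 to 0.931 between arrays of 1 line and at most -0.144 between lines. The subtraction itself pulls r between lines below 0, so that sign does not mean that lines were opposed.

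The genes, lists and rules were chosen with earlier results of these data known. Named are the 14 largest rises and 14 largest falls that passed, moved alike in all 5 lines and lie outside the ERK output, cell cycle and ribosome production lists, up to 4 members of each of 47 other lists, 6 members of those 3 lists and 10 genes of wide range between lines. Of these 200 genes 195 passed. The members of 1 list are not reported here as a group. Their 102 other probe sets above the filter had the same sign in 102 cases. Further called members of a list were named after their values were seen. In 5 simulated runs with 200 changed genes among the 7178, the share recovered was 60% for a log2 change of 0.5, 93.7% for 1 and 99.4% for 2, and unchanged genes made up 6.44% of calls. These runs had far fewer changed genes than the 2030 called in the data, so the same adjusted threshold was harder to reach. The simulated shares are therefore not estimates for the data. The number of arrays limits the precision. Promoter windows and gene names came from RefSeq tables (GRCh38.p14). Plots used matplotlib 3.10.9 (Python 3.11.15).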

Additional observations from a re-analysis of the deposited data

Results flagged for a closer look

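For 8 of the 200 named genes 1 line stood apart from the other lines. The gap required is one that chance gives in about 1 in 20 unselected groups of 5. That rate cannot be set against 8 of 200, because 195 of the named genes had passed a test over these same lines. Whether the 8 genes exceed chance was not tested. SkMel-5 had the smallest change in 3 of the 8 genes. ID2 rose by 1.12 in SkMel-5 and by 1.66 to 1.77 in the other lines, the receptor kinase GRK3 (a call lost without SkMel-28 or SkMel-19) stood at 0.14 against 0.55 to 0.68, and ZNF365 at -0.26 against -1.32 to -1.12. SkMel-1 had the largest change in CLIC4 (1.21 against 0.55 to 0.61) and in POP7, a subunit of RNase P (-0.94 against -0.74 to -0.71). SkMel-19 had the largest change in EPHX1, an epoxide hydrolase (0.91 against 0.49 to 0.56), and in the G protein subunit GNG12 (-1.30 against -0.70 to -0.52). In SkMel-28 the death receptor gene FAS stood at 0.83 against 0.15 to 0.34, and its call was lost without any line but SkMel-1. All values are log2 fold changes from 1 array per line and condition.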

How the results depend on the processing

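Under the 18 alternatives, 0 of the 2030 calls changed sign among those still tested. In settings that alter only the filter, the trend in the prior variance or the block, the sign could not change. The pairing by cell line decides how many genes pass: with no replicate block 13 genes passed, 1 higher and 12 lower, of which 3 were members of the lists, and the direction of each mean is the same by construction. With cell line as a random replicate block 2119 passed. With 1 line left out, between 1289 (without SkMel-19) and 1832 (without SkMel-5) genes passed, between 629 and 972 of them higher; 4 lines then remained and fewer arrays entered the fit. The other settings left from 1456 genes (filter at the 60th percentile, 4785 tested) to 2049 (mean of all probe sets of a gene), and no filter on low values gave 1653. Centring the arrays on their medians gave 935 higher and 1008 lower, against 1075 and 955. Of the 195 named genes that passed, 188 lost their call with no replicate block and 12 to 35 with 1 line left out. Signal over background limits the sizes: 64 of the 195 had an array under a signal of 85.8, and with such signals raised to that level 9 lost their call.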

Other observations

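Other gene groups gave shares near those over all genes tested, 15% higher and 13.3% lower, or few calls. Of 143 zinc finger genes of the ZNF family and its relatives 20 rose and 9 fell, with a median of 0.12, led by ZKSCAN1 (0.76, SE 0.12) and ZNF280A (0.73, SE 0.14) upward and ZNF365 (-1.02, SE 0.16) and ZNF593 (-0.73, SE 0.09) downward. Many members are similar in sequence, and the rises numbered 9 without SkMel-1 or SkMel-19, 11 without Malme3M and 13 without SkMel-28, and the falls 4 without SkMel-5 and 5 without SkMel-1, SkMel-19 or Malme3M. Of 71 protein phosphatases other than the ERK phosphatases 12 rose and 12 fell. PPM1H rose (0.88, SE 0.13), and PTPN12, which acts on focal adhesions, fell with no overlap between the groups (-0.87, SE 0.13). The rises numbered 5 without SkMel-28 or Malme3M and 6 without SkMel-19, and the falls 6 without SkMel-19 or Malme3M and 7 without SkMel-1. Of 67 DNA repair genes 8 fell and 4 rose. The uracil glycosylase UNG (-0.84, SE 0.15), the mismatch repair gene MSH6 (-0.78, SE 0.12) and TDG, which excises thymine from mismatches (-0.61, SE 0.10), fell most. The falls numbered 4 without SkMel-1 and 5 without Malme3M, and the rises 0 without Malme3M, 1 without SkMel-1 or SkMel-28 and 2 without SkMel-5.

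In mRNA turnover 8 of 47 genes rose and 5 fell, and BTG1, which recruits a deadenylase (0.64, SE 0.09), rose beside PNRC1. The rises numbered 4 without SkMel-1 or SkMel-19 and 5 without SkMel-28 or Malme3M, and the falls 2 without SkMel-1, SkMel-28 or SkMel-19. Of 17 polyamine genes 3 fell and 0 rose (1 without SkMel-5 or SkMel-28), AMD1, which makes the aminopropyl donor, with no overlap between the groups (-0.80, SE 0.08). Of 27 genes of caspases, death receptors and their inhibitors 3 fell and 2 rose, and 0 rose without SkMel-28, SkMel-19 or Malme3M and 1 without SkMel-1 or SkMel-5. Of 8 cancer-testis and shared melanoma antigens tested, PRAME alone passed, and it rose (0.44, SE 0.07). Of the 2030 genes called, 1291 belong to none of the lists.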
